A study of Mus musculus with 8 samples.

Results

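The nuclear genes for the subunits of the oxidative phosphorylation system were followed in mouse macrophages that differ in creatine uptake and in cytokine treatment. Members were taken by gene symbol: complex I subunits named Nduf, the 4 Sdh genes of complex II, the Uqcr genes and Cyc1 of complex III, the Cox4 to Cox8 genes of complex IV, the Atp5 genes of complex V, and Cycs for cytochrome c. The rule found 82 of the 18125 genes in the deposited tables, of which 36 belong by name to complex I, 4 to complex II, 9 to complex III, 15 to complex IV and 17 to complex V, with Cycs as the carrier. Of these, Ndufa4 carries a complex I name and is placed in complex IV by structural work, and Atp5s and Atp5sl carry the Atp5 name without being structural subunits of the enzyme. The 13 subunits that mitochondrial DNA encodes were not analysed here.

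Complex I (NADH dehydrogenase) and complex II (succinate dehydrogenase) pass electrons from NADH and succinate to ubiquinone, complex III passes them on to cytochrome c, and complex IV (cytochrome c oxidase) hands them to oxygen. Complexes I, III and IV pump protons, and complex V (ATP synthase) uses the resulting gradient to make ATP. In macrophages, classical activation by IFN-gamma with microbial products is known for a shift towards glycolysis, and alternative activation by IL-4 for a greater reliance on oxidative phosphorylation and fatty acid oxidation.

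The data are 8 RNA sequencing libraries from C57BL/6 mice, 1 per group. Peritoneal macrophages were drawn out with 1 ml of 4% thioglycollate over 3 to 4 days, and came from wild-type (WT) or Slc6a8-/y mice (KO), either untreated or after 12 hours with IFN-gamma at 10 ng/mL. Bone marrow-derived macrophages, grown for 5 days in 10% M-CSF, came from the same genotypes, either untreated or after 6 hours with IL-4 at 10 ng/mL. Slc6a8 takes creatine into the cell and lies on the X chromosome, and the series compares the transcriptome of polarizing macrophages with and without it. The labels give no age and do not say whether libraries of a genotype came from separate animals, so p-values measure only the spread between these libraries.

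Total expected counts were 10812678 to 11065427 in the peritoneal libraries and 20553654 to 21221526 in the bone marrow-derived ones. Slc6a8 stood at 39.5 to 163.5 FPKM (fragments scaled to transcript length and library total) in WT libraries and at 0.18 to 1.71 FPKM in KO libraries, as the labels say. The 10 macrophage markers, led by Ctss and Lyz2, were all detected and summed to 13736 to 16372 FPKM in peritoneal and 14483 to 17545 FPKM in bone marrow-derived libraries. Among other cells' markers, the dendritic cell genes summed to 203.6 to 305.5 FPKM in peritoneal libraries, led by Itgax at 171.9 to 304.6 FPKM, with Flt3 at 0. Clec9a, another gene of that list, stood at 0.13 and 30.7 FPKM in untreated and IFN-gamma-treated WT cells and at 0 and 14.1 FPKM in KO cells, and its part in the IFN-gamma results was not tested. The 8 fibroblast and mesothelium genes summed to 376.1 and 354.1 FPKM in WT and to 200.5 and 172.4 FPKM in KO bone marrow-derived libraries, with Msln and Upk3b at 0. In such bulk samples, fewer cells of a type and less RNA per cell cannot be told apart.

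The subunit genes were among the more abundant transcripts in both cell types and together made up 1.25% to 1.65% of all FPKM. Expressed per transcript length, the highest mean levels over the 4 peritoneal libraries were those of Atp5b, the catalytic beta subunit of ATP synthase, at 355.5 FPKM, and Cox6a1, a subunit of cytochrome c oxidase, at 309.7 FPKM. In bone marrow-derived macrophages Cox6a1 led with 259.3 FPKM, followed by Atp5b with 242.8 FPKM. At the other end were isoforms known from other tissues. Cox4i2, the lung isoform of subunit 4, averaged 0.033 FPKM in peritoneal and 0.26 FPKM in bone marrow-derived libraries, and the ubiquitous Cox4i1 made up at least 99.7% of their sum in every library. Cox6b1 made up 98.6% to 99.9% of Cox6b1 plus Cox6b2, a testis isoform. Cox6a2, the heart and muscle isoform of subunit 6a, was 0.24% to 1.74% of Cox6a1 plus Cox6a2. Of the 82 members, 79 reached a mean of 1 FPKM in peritoneal macrophages (not Cox4i2, Cox6b2 and Cox7a1) and 81 in bone marrow-derived macrophages (not Cox4i2). The same members passed the filter on low counts of the fits below. The mean levels in both cell types ran in much the same order, with a Spearman's rho of 0.92 over the 82 members, given as a description because the points share libraries. No test was made between cell types, whose tables differ in depth and, for 2 members, in transcript length by over 10%.

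Most members have short transcripts, with a median length of 717 bases against 2596 bases over all genes, and 55 of the 82 lie under 1000 bases. For that reason the medians of the fits per cell type and of the library pairs are also set beside those of short transcripts. These are all genes of the same comparison with transcripts under 1000 bases, a class chosen after seeing the data.

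**Figure D1:**
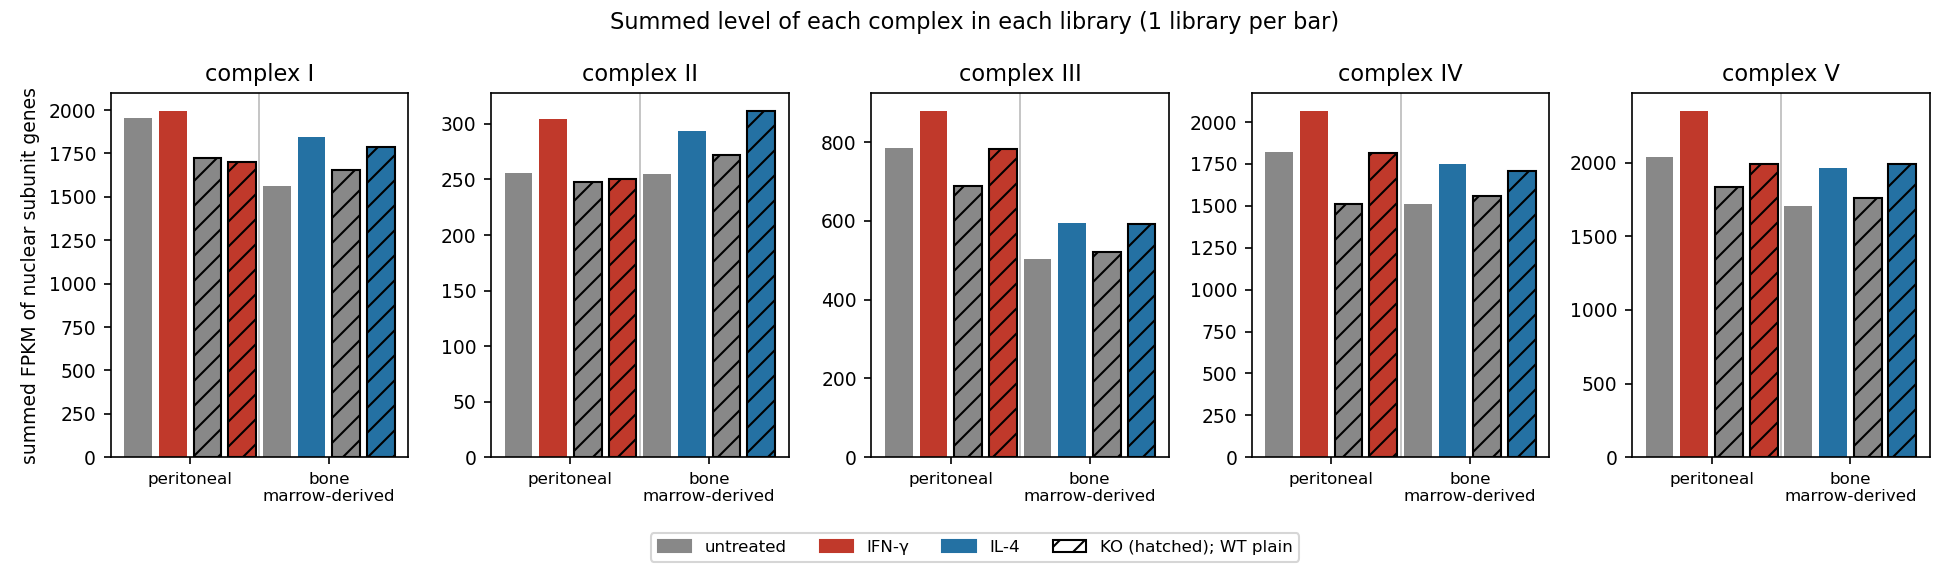
Summed FPKM of the nuclear subunit genes of each complex (vertical axis, from 0), with 1 bar per library and no error because each group has 1 library. Hatched bars are KO, and sums are not scaled to a library's total FPKM. In peritoneal macrophages the IFN-gamma bar stands above the untreated bar of its genotype for complexes II to V, and both KO bars stand below the WT bars of the same treatment in all 5 panels; in bone marrow-derived macrophages each IL-4 bar stands above its untreated bar.

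Summed over all members, the peritoneal libraries held 6876 FPKM in untreated WT, 7642 FPKM in IFN-gamma-treated WT, 6031 FPKM in untreated KO and 6581 FPKM in IFN-gamma-treated KO cells. The sum was thus higher with IFN-gamma in each genotype and lower in KO cells under each treatment. Total FPKM also differed between libraries, at 465956 in untreated WT and 442361 in untreated KO cells. As shares of all FPKM the sums were 1.48%, 1.65%, 1.36% and 1.47%, in the same order and with the same directions. For complex II the share was 0.0548% in untreated WT, 0.0561% in untreated KO and 0.0559% in treated KO cells, unlike the direction of its sums. The bone marrow-derived libraries held 5550 FPKM in untreated WT, 6459 FPKM in IL-4-treated WT, 5778 FPKM in untreated KO and 6402 FPKM in IL-4-treated KO cells. Here the sum was higher with IL-4 in each genotype, while the KO library was above WT in untreated cells and below it after IL-4.

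Promoters of the members were read from RefSeq (GRCm38.p6), which matched 68 of the 82 members. The window ran from 250 bases before to 50 bases after a transcript's start. Cycs, Cox7b and Atp5b are shown because they rose with IFN-gamma with edgeR and in the 5 other fits tried. The 100 bases before the start, 5′ to 3′ on the coding strand, follow, with capitals for the palindrome bound by NRF1, a regulator of respiratory genes, and for CCGGAAGT (bound by ETS factors such as GABP) and AAGATGGC (bound by YY1), searched on both strands. None of these exact strings of letters lies in the 3 stretches. Near matches were not searched for, so the absence of binding sites was not shown. The Cycs stretch holds tcgcatgcgc, which differs from the NRF1 palindrome in its first base. That palindrome is the run of capitals in the sequences of the next paragraph.
Cycs (chr6:50566570-50566669, minus strand): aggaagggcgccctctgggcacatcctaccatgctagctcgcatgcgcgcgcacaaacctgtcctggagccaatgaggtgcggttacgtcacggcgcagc
Cox7b (chrX:106015600-106015699, plus strand): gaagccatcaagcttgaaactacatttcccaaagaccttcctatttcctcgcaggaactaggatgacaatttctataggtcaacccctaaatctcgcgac
Atp5b (chr10:128083207-128083306, plus strand): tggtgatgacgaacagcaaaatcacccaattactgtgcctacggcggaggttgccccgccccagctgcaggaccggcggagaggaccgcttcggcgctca

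The NRF1 letters were found in 5 of the 68 member windows (7.35%), against 1.32% of 17492 protein-coding windows. Those of Atp5g2 (a gene of the c-ring of ATP synthase), Atp5k (subunit e) and Ndufa11 (membrane arm of complex I) hold them within 100 bases before the start, 42, 50 and 60 bases upstream. Cox6a1 holds them 162 bases upstream, and Uqcrc1, a core protein of complex III, 30 bases downstream. The Uqcrc1 site is shown with 8 bases on each side. Atp5g2, Atp5k and Ndufa11 did not pass the test with either cytokine in the edgeR fits per cell type below.
Atp5g2 (chr15:102671048-102671147, minus strand): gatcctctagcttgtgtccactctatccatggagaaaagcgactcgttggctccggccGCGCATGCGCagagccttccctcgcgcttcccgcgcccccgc
Atp5k (chr5:108434400-108434499, minus strand): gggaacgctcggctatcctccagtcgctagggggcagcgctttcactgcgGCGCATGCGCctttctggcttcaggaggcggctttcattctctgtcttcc
Ndufa11 (chr17:56717662-56717761, plus strand): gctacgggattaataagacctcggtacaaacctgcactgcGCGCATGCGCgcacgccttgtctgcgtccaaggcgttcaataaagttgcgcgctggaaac
Uqcrc1 (chr9:108936670-108936695, plus strand): tccgctctGCGCATGCGCagcgcggc

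The YY1 letters were in 10 of the 68 member windows (14.7%) and in 3.22% of all windows. In 9 of these 10 they lay on the coding strand 15 to 45 bases after the start, as in 30.5% of the 564 windows of all genes that hold the letters. The 9 sites lie at 22 to 38 bases. No outside source is given for the limits around them, so the shares are only a description. These 9 are Ndufa3, Ndufa9, Ndufb8, Ndufc1, Ndufs4, Ndufs6, Ndufs7, Atp5j2 and Atp5sl. The sites of the 5 that rose with a cytokine are shown with up to 8 bases on each side, as far as the window reaches.
Ndufs7 (chr10:80249465-80249488, plus strand): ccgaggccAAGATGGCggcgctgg
Ndufb8 (chr19:44555393-44555412, minus strand): agaaggtgAAGATGGCtgcc
Ndufc1 (chr3:51408918-51408941, minus strand): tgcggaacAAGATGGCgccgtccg
Ndufs4 (chr13:114388045-114388067, minus strand): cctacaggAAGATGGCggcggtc
Atp5j2 (chr5:145191503-145191526, minus strand): aggacttcAAGATGGCgtcactcg

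The ends TTC and GAA with 4 bases between them, bound by STAT6 downstream of IL-4, were in 5.88% of member windows and 6.37% of all windows. CCGGAAGT was in 7.35% and 5.29%. Matches of these motifs can overlap each other, and each match is a description of letters.

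IFN-gamma raised cytochrome c and parts of complexes III, IV and V in peritoneal macrophages, and few genes of complex I. The fit sets the 2 treated against the 2 untreated libraries with terms for genotype and stimulus, tested with edgeR's quasi-likelihood test. A gene is said to have risen or fallen where its adjusted p (Benjamini-Hochberg) is under 0.05. Of the 79 members tested, 19 rose and 0 fell (the unadjusted p was under 0.05 for 29, and for 5234 of 12052 genes). That is 24.1% higher, against 17.2% higher and 14.9% lower over the 12052 genes tested. The median log2 change of the members was 0.18, against -0.01 over all genes and 0.08 over short transcripts. Of the 79 members, 63 were above 0 (79.7%), against 48.8% of all genes and 59.7% of short transcripts. DESeq2 called only 3 of the members, Cycs, Cox7b and Atp5b.

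Cycs (chromosome 6, 50562563 to 50566569 on GRCm38.p6), which encodes the mobile electron carrier cytochrome c, also a trigger of apoptosis once released, stood at 24.2 FPKM in untreated WT and 23.8 FPKM in untreated KO cells, and at 44.4 and 40.4 FPKM with IFN-gamma. Both treated libraries were above both untreated ones and the genotypes lay close together. The log2 change was 0.91 (SE 0.10, adjusted p = 0.001168). The expected counts of Cycs were not whole numbers, so that some of its reads were shared with other loci, as a gene with processed copies can do.

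In complex III, 4 of 9 members rose. Uqcr10, a small accessory subunit, went from 62.0 to 86.3 FPKM in WT cells and 49.0 to 67.0 FPKM in KO cells (log2 change 0.56, SE 0.11, adjusted p = 0.01356). Uqcrfs1, the Rieske iron-sulfur protein that carries electrons within the complex, went from 35.6 to 46.3 and from 34.9 to 45.1 FPKM (0.47, adjusted p = 0.01689). For both, the treated libraries were above the untreated ones in each genotype. Uqcrb and Uqcrq, small subunits named for ubiquinone binding, also rose, by 0.34 and 0.49. Cyc1, the cytochrome c1 heme protein, was at 48.2 and 55.1 FPKM in WT and 41.9 and 47.8 FPKM in KO cells, which did not pass the test (0.29, adjusted p = 0.07604). Uqcr11, another small subunit, moved differently in the genotypes, from 109.7 to 83.2 FPKM in WT cells and 70.7 to 73.5 FPKM in KO cells (-0.08, adjusted p = 0.7157).

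In complex IV, 6 of the 12 tested members rose, all 12 were above 0 in the fit, and the median was 0.35. Cox7b (chromosome X, 106015700 to 106022450), a small membrane subunit, went from 46.8 to 77.8 FPKM in WT cells and 43.0 to 69.2 FPKM in KO cells. Its log2 change of 0.81 (SE 0.10, adjusted p = 0.002061) was nearly the same size in each pair of libraries, with ratios of 1.65 and 1.60. Cox7a2, the common form of subunit 7a, went from 52.2 to 74.1 and from 48.5 to 68.0 FPKM (0.59, adjusted p = 0.00813). Cox5a, a nuclear subunit on the matrix side, went from 96.1 to 139.7 and from 92.0 to 119.4 FPKM (0.55, adjusted p = 0.008526). In these 3 genes every treated library was above every untreated one. Cox8a and Cox5b rose by 0.48 and 0.35. Cox7a2l, described as a factor for joining complexes III and IV into supercomplexes, did not pass (0.04, adjusted p = 0.7912). Its levels were 147.1 and 141.7 FPKM in WT and 134.1 and 128.1 FPKM in KO cells. With Cox7a2 up and Cox7a2l level, Cox7a2 made up 26.1% and 26.3% of the Cox7a family's FPKM in untreated WT and KO cells and 34.3% and 34.6% in treated ones. Cox4i1, the ubiquitous subunit 4, was at 255.7 and 240.2 FPKM in WT and 200.9 and 241.2 FPKM in KO cells, in opposite directions.

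Cox6a2, which encodes the heart and muscle form of subunit 6a, had the largest estimate, on low counts. Its level was 2.69 FPKM in untreated and 6.51 FPKM in treated WT cells (19 and 47 counts) and at 0.70 and 1.26 FPKM in KO cells (5 and 9 counts). The log2 change was 1.23 (SE 0.35, adjusted p = 0.04392), and it was lost without the filter on low counts and in the DESeq2 and limma fits. Its locus (chromosome 7, 128205435 to 128206366) overlaps the end of Itgad by 70 bases, and Itgad was at 0.03 FPKM or less in peritoneal libraries.

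In complex V, 5 of 17 members rose. Atp5b (chromosome 10, 128083307 to 128090388), the catalytic beta subunit, went from 295.8 to 451.5 FPKM in WT cells and 273.1 to 401.8 FPKM in KO cells, with no overlap of treated and untreated libraries (0.68, SE 0.09, adjusted p = 0.002814). Atp5c1, the gamma subunit of the central stalk, rose by 0.43 and Atp5f1, the b subunit of the outer stalk, by 0.45. The other catalytic subunit, Atp5a1, was at 198.7 and 245.9 FPKM in WT but at 188.1 and 191.6 FPKM in KO cells and did not pass (0.26, adjusted p = 0.09871). The 3 genes Atp5g1, Atp5g2 and Atp5g3 encode the same mature c-ring protein with different leader peptides. Atp5g1 went from 75.8 to 91.8 and from 62.8 to 74.9 FPKM (0.36, adjusted p = 0.03893), and Atp5g3 from 88.1 to 115.0 and from 77.7 to 91.4 FPKM (0.41, adjusted p = 0.02637). Atp5g2, the most abundant of the 3, was at 191.4 and 191.5 FPKM in WT and 156.7 and 137.6 FPKM in KO cells (0.003, SE 0.10, adjusted p = 0.9844). Treated libraries were thus higher for Atp5g1 and Atp5g3 and not for Atp5g2, and the difference between the genes was not tested.

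In complex II, Sdhd, which anchors the enzyme in the membrane, went from 51.4 to 71.6 FPKM in WT cells and 47.3 to 60.7 FPKM in KO cells (0.52, SE 0.10, adjusted p = 0.01051). Sdhc, the other anchor, was at 75.5 and 91.5 FPKM in WT and 71.3 and 79.4 FPKM in KO cells and narrowly missed the threshold (0.31, adjusted p = 0.05396). The catalytic flavoprotein Sdha stood at 59.8 and 58.6 FPKM in WT and at 61.6 and 51.7 FPKM in KO cells (-0.05, adjusted p = 0.7621). The iron-sulfur subunit Sdhb went from 68.9 to 82.4 FPKM in WT cells and 67.9 to 58.7 FPKM in KO cells (0.12, adjusted p = 0.507). Both anchors were higher in each treated library, and the catalytic pair was not.

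Complex I had the lowest share of calls of the 5 complexes, with 2 of 36 members risen (5.56%, below the 17.2% of all genes), and the lowest median, 0.13. Both lie in the peripheral arm that reaches into the matrix. Ndufs4, which is needed for a stable arm, went from 8.32 to 10.6 FPKM in WT cells and 7.93 to 10.9 FPKM in KO cells (0.50, SE 0.14, adjusted p = 0.04156). Ndufs3, a core subunit near the ubiquinone end and outside the rule for named genes, went from 43.4 to 59.5 and from 38.8 to 49.0 FPKM (0.49, SE 0.10, adjusted p = 0.01568). The other 9 members of the NADH end of that arm held no call, and 4 of its 10 members were above 0, with a median of -0.04. Among them were Ndufv1, which binds NADH and flavin, at 24.7 and 20.4 FPKM in WT and 24.6 and 19.4 FPKM in KO cells (-0.21, adjusted p = 0.1807), and Ndufa6, an accessory subunit, at 66.2 and 53.0 and at 55.7 and 44.6 FPKM (-0.22, adjusted p = 0.1818). Both genes were lower in each treated library without passing the test. Of the 19 members of the membrane arm, which pumps protons, 15 were above 0 and 0 passed.

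**Figure D2:**
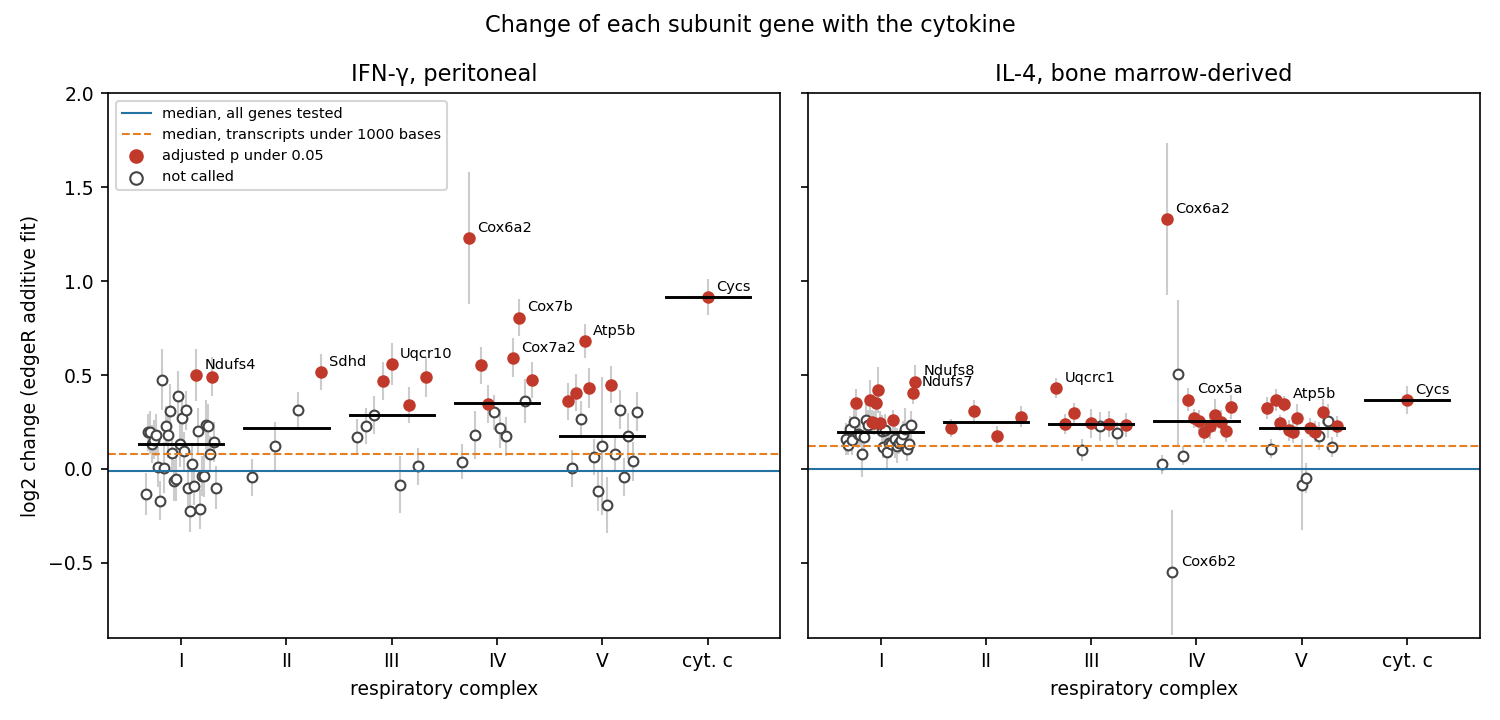
Log2 change with the cytokine for each tested subunit gene (points, with the SE as a grey bar), by complex; filled points have an adjusted p under 0.05, black lines are medians of a complex, and the blue and dashed lines are the medians of all genes tested and of those with transcripts under 1000 bases. With IFN-gamma the points spread around a median of 0.18. Cycs, Cox7b and Atp5b have the largest changes after Cox6a2, with no clear gap between Atp5b and the next genes. With IL-4 most points lie close to 0.23. Cox6a2 is high in both panels on low counts.

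The responses were compared by genotype through library pairs, as log2 ratios of FPKM plus a pseudocount of 1, which have no test. The median response to IFN-gamma over the members was 0.15 in WT and 0.05 in KO cells, where the median over all genes was -0.05 and -0.11. Over short transcripts it was -0.02 in WT and -0.02 in KO cells. Both genotypes went up for 44 of 79 members and both went down for 22, and the other 13 went in opposite directions (16.5%, against 19.0% of all genes). Ratios of at least 1.5 were found for 4 members in WT (all genes 11.0%) and 2 in KO cells (all genes 11.8%). The 3 leading genes had similar ratios in both genotypes, 1.80 and 1.67 for Cycs, 1.65 and 1.60 for Cox7b, and 1.53 and 1.47 for Atp5b.

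IL-4 raised members of every complex in bone marrow-derived macrophages by small and similar amounts. In the fit over the 4 libraries, 42 of 81 members rose and 0 fell (the unadjusted p was under 0.05 for 60, and for 4332 of 12879 genes). That is 51.9% higher, against 12.0% higher and 9.23% lower over the 12879 genes tested. The median log2 change was 0.23, against -0.003 over all genes and 0.12 over short transcripts, of which 134 of 912 rose. Of the 81 members, 78 were above 0 (96.3%), against 49.6% of all genes and 73.1% of short transcripts. The exceptions were Cox6b2, Atp5s and Atp5sl. The count fell to 7 with DESeq2 and to 8 in a fit over all 8 libraries.

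In complex I, 10 of 36 members rose and all 36 were above 0. Ndufs8, an iron-sulfur core subunit near the ubiquinone end, went from 24.8 to 36.8 FPKM in WT cells and 26.1 to 31.7 FPKM in KO cells (0.47, SE 0.09, adjusted p = 0.005159). Ndufs7 (chromosome 10, 80249105 to 80256794), which holds the last iron-sulfur cluster before ubiquinone and carries the YY1 letters shown above, went from 55.6 to 73.4 and from 59.1 to 74.5 FPKM (0.41, SE 0.06, adjusted p = 0.0009835). In both genes every IL-4 library was above every untreated one. In the membrane arm 7 of 19 rose, among them Ndufc1 from 21.9 to 32.3 and from 25.1 to 29.0 FPKM (0.42, adjusted p = 0.03605) and Ndufb6 from 14.7 to 18.5 and from 15.6 to 19.5 FPKM (0.37, adjusted p = 0.03208). At the NADH end 1 of 10 rose (Ndufs1, the largest core subunit, 0.26, adjusted p = 0.011), with a median of 0.15.

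All 4 genes of complex II rose. Sdha went from 68.0 to 74.9 FPKM in WT cells and 69.5 to 80.7 FPKM in KO cells (0.22, adjusted p = 0.01049), and Sdhb from 61.9 to 78.6 and from 71.1 to 81.6 FPKM (0.31, adjusted p = 0.004248). Sdhc went from 82.6 to 91.8 and from 87.6 to 95.4 FPKM (0.18, adjusted p = 0.03548), and Sdhd from 42.7 to 48.3 and from 44.1 to 54.2 FPKM (0.28, adjusted p = 0.006802). For each of the 4, both IL-4 libraries were above both untreated ones.

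In complex III, 6 of 9 rose. Uqcrc1 (chromosome 9, 108936648 to 108949641), a core protein on the matrix side, went from 67.1 to 91.4 FPKM in WT cells and 73.3 to 92.6 FPKM in KO cells (0.43, SE 0.05, adjusted p = 0.0003346), the smallest adjusted p of any member in this comparison. Cyc1 went from 42.7 to 51.1 and from 40.9 to 48.7 FPKM (0.30, adjusted p = 0.00458). Uqcrfs1, which rose with IFN-gamma, was at 35.5 and 36.4 FPKM in WT and at 38.1 and 40.4 FPKM in KO cells (0.10, adjusted p = 0.2724).

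In complex IV, 9 of the 10 ubiquitous subunits rose, by 0.20 to 0.37. Cox5a went from 80.1 to 94.9 FPKM in WT cells and 75.6 to 100.8 FPKM in KO cells (0.37, SE 0.06, adjusted p = 0.001806). Cox8a went from 188.1 to 250.2 and from 201.6 to 226.6 FPKM (0.33, adjusted p = 0.005968). Cox7b went from 34.5 to 39.2 and from 32.6 to 38.4 FPKM (0.25, adjusted p = 0.0167). The exception was Cox4i1, at 228.5 and 237.1 FPKM in WT and 249.1 and 251.3 FPKM in KO cells (0.07, adjusted p = 0.3535). Cox6a2 went from 0.58 to 1.64 FPKM and from 0.58 to 1.23 FPKM (8 to 22 and 8 to 17 counts; log2 change 1.33, SE 0.41, adjusted p = 0.04376). Cox6b2 and Cox7a1 had few counts as well and did not pass (adjusted p = 0.2821 and 0.4121).

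In complex V, 11 of 17 members rose, among them all 5 subunits of the catalytic head and central stalk. Atp5b went from 219.1 to 268.6 FPKM in WT cells and 215.1 to 268.4 FPKM in KO cells (0.35, SE 0.04, adjusted p = 0.0003984), nearly equal in both genotypes. Atp5a1 went from 182.1 to 210.8 and from 189.4 to 217.3 FPKM (0.24, adjusted p = 0.003487). Of the c-ring genes, Atp5g3 went from 85.1 to 101.6 and from 89.1 to 117.3 FPKM (0.37, adjusted p = 0.001305) and Atp5g1 from 59.4 to 73.1 and from 61.0 to 73.7 FPKM (0.33, adjusted p = 0.002898). Atp5g2 was at 231.7 and 242.6 FPKM in WT and 222.7 and 234.0 FPKM in KO cells and did not pass (0.11, adjusted p = 0.1565). Cycs went from 12.0 to 13.8 and from 11.3 to 15.4 FPKM (0.37, SE 0.07, adjusted p = 0.005655).

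By library pair, the median response to IL-4 was 0.21 in WT and 0.13 in KO cells. It was -0.04 and -0.01 over all genes, and 0.10 and 0.04 over short transcripts, also lower in KO cells in this class. In both genotypes 73 of 81 members went up (90.1%, against 30.9% of all genes). The KO response was below the WT response for 52 of 81 members, 64.2% against 46.0% of all genes, and 26 of them were among the 36 of complex I, whose medians were 0.20 in WT and 0.11 in KO cells. With 1 library per arm this difference has no test. Of the 19 members that rose with IFN-gamma, 16 (84.2%) also rose with IL-4, which is 38.1% of the 42 that rose there; Ndufs3, Ndufs4 and Uqcrfs1 were the 3 others. Over all genes, 442 rose in both, which is 21.3% of the 2077 that rose with IFN-gamma and 28.7% of the 1542 that rose with IL-4, while 51.9% of all tested members rose with IL-4. The treatments differ in cell type, cytokine and hours, and were not tested against each other.

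**Figure D3:**
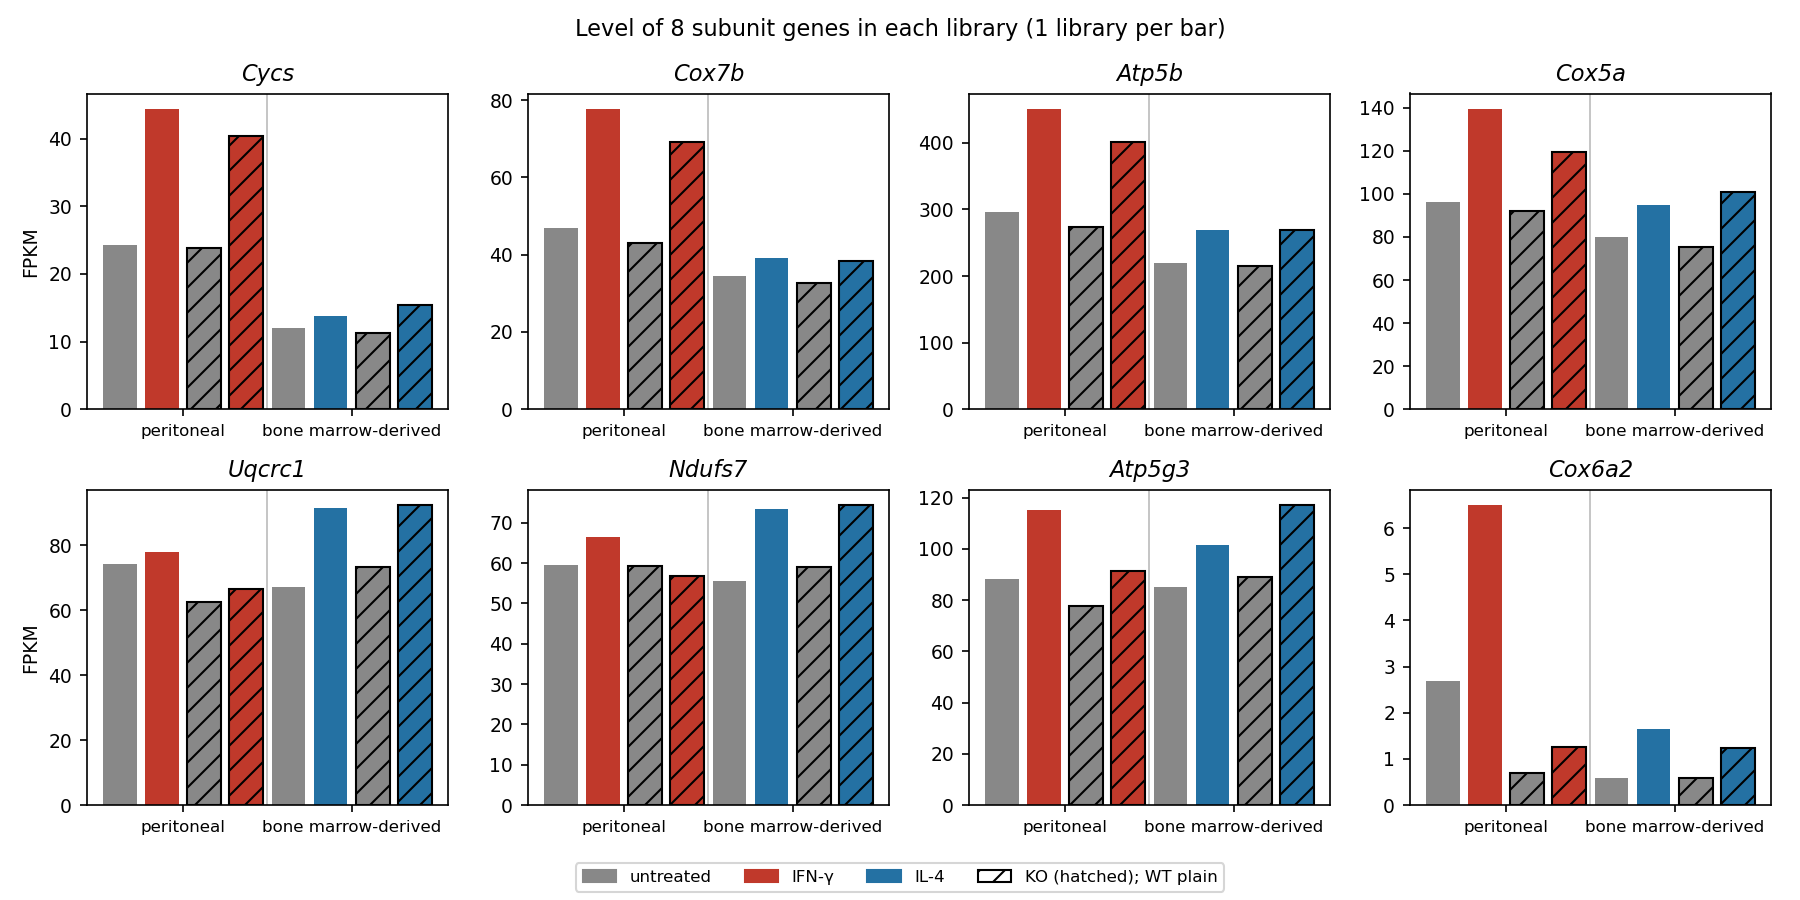
FPKM of 8 subunit genes in each of the 8 libraries (vertical axis from 0, 1 library per bar, no error bar possible); grey is untreated, red IFN-gamma, blue IL-4 and hatched KO. Cycs, Cox7b and Atp5b are higher in both IFN-gamma libraries; Uqcrc1, Ndufs7 and Atp5g3 are higher in both IL-4 libraries; Cox6a2 is under 7 FPKM in every library and lowest in KO cells among the peritoneal ones.

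**Figure D4:**
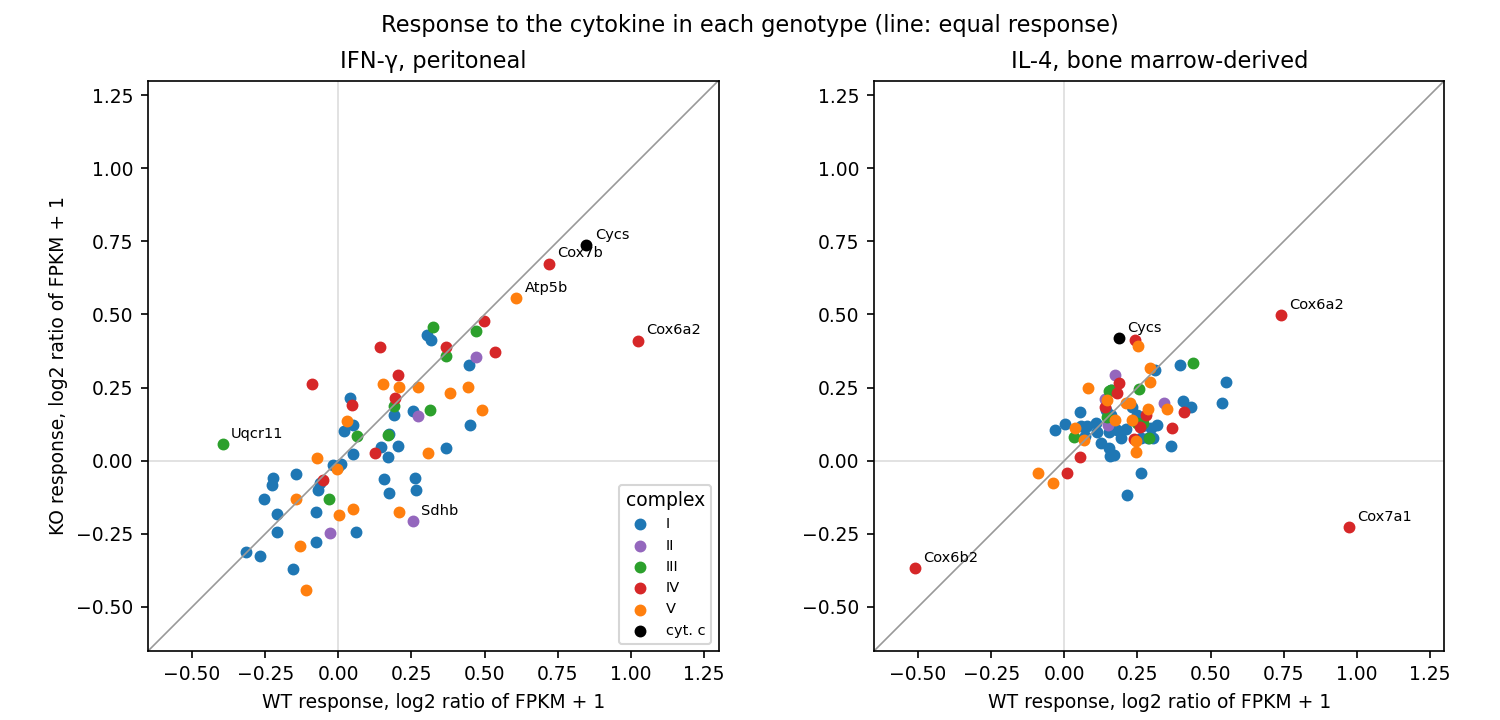
Response of each member to its cytokine in KO (vertical axis) against WT cells (horizontal axis), as log2 ratios of FPKM plus 1 between single libraries; colours are complexes and the line marks equal responses. Cycs, Cox7b and Atp5b lie near the line at the upper right with IFN-gamma, and with IL-4 most points lie in the upper right quadrant, 52 of 81 below the line.

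Without Slc6a8, no single member passed the test in peritoneal macrophages, although most lay slightly lower. In the same edgeR fit, 0 of 79 members were called between KO and WT, against 0.0332% of all genes in either direction, and the unadjusted p was under 0.05 for 24 of them (1680 of 12052 genes). DESeq2 and limma also called 0, with 2 and 27 members at an unadjusted p under 0.05. The log2 change was below 0 for 75 of the 79, with a median of -0.20 against 0.01 over all genes, of which 51.3% were above 0. Short transcripts as a class were lower as well, with a median of -0.15 and 603 of 826 below 0, and the part of transcript length in the members' values was not tested.

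The values lay below WT in each complex, with medians of -0.22 for complex I, -0.17 for complex II, -0.21 for complex III, -0.17 for complex IV and -0.22 for complex V. By library pair, the median KO to WT ratio was -0.13 on the log2 scale in untreated and -0.21 in IFN-gamma-treated cells. Over short transcripts it was -0.12 and -0.15, with 624 and 626 of 929 below 0. Of the members, 65 of 79 were below 0 in both pairs (82.3%, against 28.9% of all genes). That share was not computed for short transcripts. The peritoneal dendritic cell markers summed to 305.5 and 266.9 FPKM in untreated and treated KO and 228.1 and 203.6 FPKM in WT libraries. Within that list Itgax was higher in KO cells (304.6 and 251.4 FPKM, against 227.4 and 171.9 FPKM) and Clec9a lower with IFN-gamma (14.1 against 30.7 FPKM). Beside them stood the fibroblast and mesothelium markers, at 125.5 and 89.9 FPKM in KO and 135.9 and 114.4 FPKM in WT libraries. Their part in the members' values was not tested.

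Among single genes, Ndufa7 of the complex I peripheral arm stood at 68.3 and 65.3 FPKM in WT and 51.3 and 48.6 FPKM in KO cells (-0.43, SE 0.11, adjusted p = 0.2613); it was chosen after its values were seen. Ndufa13, a complex I subunit also known as GRIM-19, stood at 43.3 and 44.95 FPKM in WT and 32.8 and 33.4 FPKM in KO cells (-0.43, SE 0.10, adjusted p = 0.2454). Cox8a stood at 208.5 and 269.6 and at 157.4 and 206.2 FPKM (-0.41, adjusted p = 0.2454). Atp5g2 stood at 191.4 and 191.5 and at 156.7 and 137.6 FPKM (-0.39, adjusted p = 0.2523). In Ndufa7, Ndufa13, Cox8a and Atp5g2 both KO libraries were below both WT libraries, and the fit, with 1 residual degree of freedom, did not call them. Cox6a2, at 2.69 and 6.51 FPKM in WT and 0.70 and 1.26 FPKM in KO cells, had the largest difference (-2.19, SE 0.37, unadjusted p = 0.001073, adjusted p = 0.1725), on 5 to 47 counts. At the other end, Atp5j, Uqcrb, Ndufa1 and Atp5s were the 4 members above 0, at 0.03 to 0.06.

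**Figure D5:**
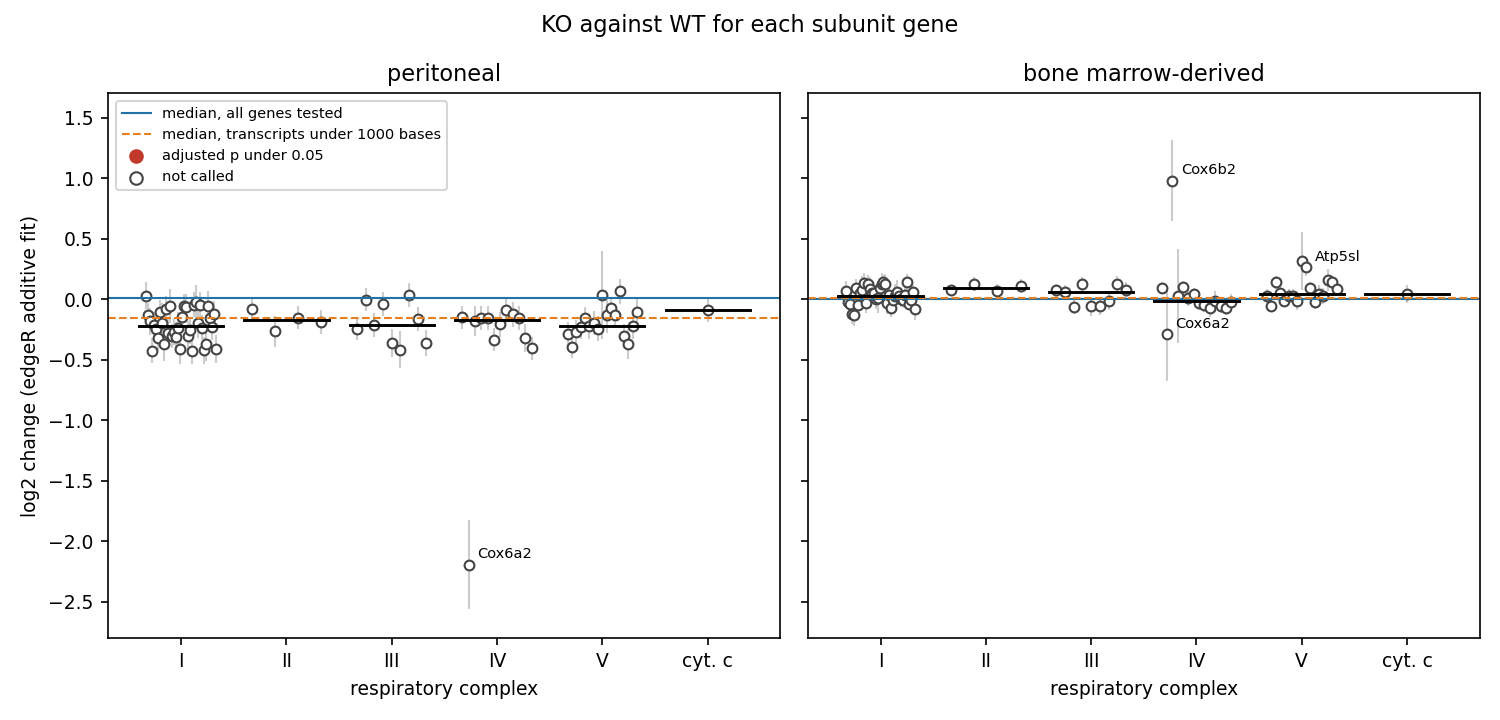
Log2 change of KO against WT for each tested subunit gene (points, with the SE as a grey bar), by complex; open points did not pass an adjusted p of 0.05, black lines are medians of a complex, and the blue and dashed lines are the medians of all genes tested and of those with transcripts under 1000 bases. In peritoneal macrophages 75 of 79 points lie below 0, near the dashed line at -0.15, and in bone marrow-derived macrophages the points lie around 0.

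In bone marrow-derived macrophages no single member passed the test between genotypes in the fit per cell type. Of 81 members, 0 were called, against 5.19% of all genes, and the unadjusted p was under 0.05 for 5 (2283 of all genes). DESeq2 called 0 as well. The median was 0.03, against 0.01 over short transcripts, and the medians of the complexes lay between -0.02 and 0.09. Cycs was at 12.0 and 13.8 FPKM in WT and 11.3 and 15.4 FPKM in KO cells (0.04, SE 0.07), and Atp5b at 219.1 and 268.6 and at 215.1 and 268.4 FPKM (-0.01, SE 0.04). The nearest to the threshold was Atp5sl, at 14.7 and 14.3 FPKM in WT and 17.7 and 16.8 FPKM in KO cells (0.27, SE 0.08, adjusted p = 0.09557). Both KO libraries were above both WT libraries for this gene, which passed when no filter on low counts was used. Cox6b2 was at 1.68 and 0.88 FPKM in WT and 2.87 and 2.0 FPKM in KO cells (0.98, SE 0.34, adjusted p = 0.1479), on 10 to 31 counts. The fibroblast and mesothelium markers, which also differed by genotype here, were given above, and their part was not tested.

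The KO effect in peritoneal minus that in bone marrow-derived macrophages, taken from a fit over all 8 libraries, was called for 0 of 81 members, against 0.127% of 13340 genes, with 31 members at an unadjusted p under 0.05 (2091 of all genes). It was below 0 for 78 of 81, with a median of -0.26 against 0.01 over all genes. A difference of the KO effect between the cell types was therefore not shown for any single member. Short transcripts had a median KO change of -0.15 in the peritoneal fit and 0.01 in the bone marrow-derived fit. Their difference between cell types was not computed, and the part of transcript length in the members' difference was not tested.

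Genes that build and regulate the respiratory chain were examined from lists of assembly factors, carriers and regulators. With IFN-gamma, 7 of 49 assembly factors rose and 1 fell, or 14.3% and 2.04%, both below the 17.2% and 14.9% of all genes. Those with the largest changes serve complex IV: Sco1, a copper chaperone, went from 2.27 to 5.89 FPKM in WT cells and 2.21 to 8.33 FPKM in KO cells (1.75, adjusted p = 0.001083), Coa5 from 39.7 to 119.1 and from 39.7 to 114.2 FPKM (1.65, adjusted p = 0.0001388), and Cox17, which delivers copper, from 39.4 to 66.3 and from 32.4 to 84.5 FPKM (1.16, adjusted p = 0.005948). Sdhaf1, Higd1a, Cox10 and Acad9 rose by 0.40 to 0.70. Ndufaf7, an assembly factor of complex I, fell by 0.68 with IFN-gamma and by 0.58 with IL-4, where it was the 1 of 51 assembly factors that fell and Tmem126b, Sco2 and Lrpprc rose by 0.24 to 0.40. Those 3 are 5.88% of the list, below the 12.0% of all genes that rose with IL-4.

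Of 17 carriers and other mitochondrial membrane or electron transfer proteins, 5 rose and 1 fell with each cytokine. That is 29.4% higher and 5.88% lower, where all genes had 17.2% and 14.9% with IFN-gamma and 12.0% and 9.23% with IL-4. With IFN-gamma these were Gpd2, the mitochondrial glycerol 3-phosphate dehydrogenase (1.26), Chchd10 (1.11), the outer membrane channel gene Vdac2 (0.96), the ADP/ATP carrier gene Slc25a5 (0.66) and the uncoupling protein gene Ucp2 (0.43), while Etfb, of the electron transfer flavoprotein, fell by 0.48. With IL-4 Chchd10 (0.71), Etfb (0.33), Vdac2 (0.31), Slc25a5 (0.30) and Etfa (0.26) rose and Gpd2 fell by 0.26. Slc25a5 stood at 240.0 and 372.2 FPKM in untreated and IFN-gamma-treated WT cells and at 236.8 and 331.6 FPKM in KO cells. Gpd2 and Etfb thus passed the test in opposite directions with the 2 cytokines.

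Of 20 regulators, 7 rose and 1 fell with IFN-gamma, and of 19, 3 rose and 2 fell with IL-4. The shares were 35.0% higher and 5.0% lower with IFN-gamma, against 17.2% and 14.9% of all genes. With IL-4 they were 15.8% and 10.5%, near the 12.0% and 9.23% of all genes. Ppargc1b, the coactivator PGC-1beta, went from 1.46 to 5.40 FPKM in WT cells and 1.29 to 6.43 FPKM in KO peritoneal cells (2.2, adjusted p = 0.0004923), and from 0.73 to 1.98 and from 0.72 to 2.57 FPKM with IL-4 (1.68, adjusted p = 5.233e-05). Its partner Esrra, the nuclear receptor ERRalpha, rose by 0.77 and 0.40, and Pprc1, a related coactivator, by 0.59 and 0.44. Hif1a, the oxygen-sensitive factor that favours glycolysis, rose by 2.39 with IFN-gamma, from 26.5 to 118.7 FPKM in WT cells and 30.9 to 167.1 FPKM in KO cells, and fell by 0.22 with IL-4. Ppargc1a, the other PGC-1 coactivator, was at 0.55 FPKM or less in every library. In peritoneal cells it was lower with IFN-gamma, at 0.27 and 0.06 FPKM in WT and 0.55 and 0.10 FPKM in KO cells. Not every called regulator is named here. None of these lists held a call between KO and WT in either cell type with edgeR.

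Usmg5, a small membrane subunit of ATP synthase that newer annotation calls Atp5md and that the symbol rule therefore leaves out, went from 62.2 to 92.1 FPKM in WT cells and 71.9 to 81.0 FPKM in KO cells with IL-4 (0.41, adjusted p = 0.0193). It was the 1 gene that rose in a list of 6 tested genes outside the rule or known by newer names, which also holds Atp5s and Atp5sl.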

How the data were processed

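RNA sequencing was done on 8 libraries of mouse macrophages, 1 per group. Per the submitters' processing notes, the authors used Bowtie2 2.2.5 and RSEM with the mm10 build; for RSEM no version is given in the sources used here. The deposited tables hold an expected count and an FPKM value per gene, where the authors' FPKM scales the count to transcript length and library total with no further scaling between libraries. Expected counts were whole, within 0.005, for 70.1% to 77.8% of genes. A gene missing from a table was set to 0.

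Expected counts were rounded and fitted per cell type with edgeR 4.0.16 in R 4.3.3 (TMM scaling, filterByExpr, quasi-likelihood test, additive terms for genotype and stimulus, 1 residual degree of freedom). P-values were adjusted by Benjamini-Hochberg over all genes tested, with a threshold of 0.05. The SE was taken from the F statistic of the test, as the size of the log2 change over its root. A response that differs by genotype enters the residual spread. Library pairs were compared by log2 ratios of FPKM + 1 over genes averaging 1 FPKM or more; the pseudocount understates changes of low genes. Alternatives were DESeq2 1.42.0, limma 3.58.1 on log2(FPKM + 1), DESeq2 size factors, no filter, all 8 libraries in 1 fit, and members with whole counts only, and for library pairs a pseudocount of 0.1, rescaling by the median ratio, no filter, and Ndufa4 counted in complex IV. The edgeR fit per cell type was also run on simulated counts with additive changes and a single common spread. That setting is simpler than the data, so the run cannot show whether the calls reported here hold. Symbols come from the deposited tables, positions and promoters from RefSeq (GRCm38.p6), and other computing used Python 3.11.15 with pandas 2.3.3.

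The members and gene lists were chosen with earlier results of these data known. Named genes are, per comparison, the 8 largest calls in each direction (all where 15 or fewer); the 2 highest and the lowest member of each complex; the Sdh genes, Cyc1, Cycs, the Cox isoform families and the 3 c-ring genes; the 5 highest and lowest ratios of each library pair; and list genes called. Not every called regulator was named. Ndufs3, Ndufa7, Cox5b and the other members named outside this rule were chosen after their values were seen. Counting error is a lower limit, since PCR copies of a fragment count separately; expressed members had a median of 542 counts in peritoneal and 899 in bone marrow-derived libraries.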

Additional observations from a re-analysis of the deposited data

Results flagged for a closer look

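In 6 members the cytokine response went in opposite directions in WT and KO cells, by at least 0.1 in each on the log2 scale of FPKM + 1. The difference was not tested, because each response compares 1 library with 1 library. With IFN-gamma in peritoneal macrophages, the KO response minus the WT response was -0.46 for Sdhb (0.26 in WT, -0.21 in KO), -0.37 for Ndufb5 (0.27 and -0.10), -0.29 for Ndufc2 (0.17 and -0.11) and -0.38 for Atp5s (0.21 and -0.18), the last at about 1 FPKM. With IL-4 in bone marrow-derived macrophages it was -0.33 for Ndufa2 (0.21 and -0.12) and -1.20 for Cox7a1 (0.97 and -0.23), a muscle isoform that stood at 14 and 34 counts in WT and 27 and 22 counts in KO cells. The 4 members with IFN-gamma are 5.06% of those compared and the 2 with IL-4 are 2.47%. By the same limit, 5.83% and 4.54% of all genes moved in opposite directions.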

How the results depend on the processing

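Of 72 summary values recomputed, 65 kept within the limits set for them, 7 moved and 0 reversed. The 19 members called with IFN-gamma became 3 with DESeq2 and 29 with all 8 libraries in 1 fit, and the 42 called with IL-4 became 7 and 8; the cause was not tested. Without a filter on low counts, 1 member (Atp5sl) was called between KO and WT bone marrow-derived macrophages. Rescaling FPKM by the median gene ratio, which was -0.11 over all genes in the KO IFN-gamma pair, moved the members' median there from 0.05 to 0.16, and in the WT IL-4 pair from 0.21 to 0.25. Cycs, Cox7b and Atp5b kept their IFN-gamma call, and Atp5b, Atp5g3, Cox5a, Ndufs7 and Uqcrc1 their IL-4 call, under the 5 other fits. No paired analysis was possible because every group holds 1 replicate; for the same reason no replicate could be left out of the fits over 4 libraries, since 3 leave no residual degrees of freedom, and leaving a library out of the fit over 8 libraries, which has 2, was not run. Small changes in peritoneal macrophages, at 10812678 to 11065427 counts per library, may go uncalled. The common coefficient of variation, edgeR's estimate of the spread between libraries beyond counting error, was also larger there. It was 10.4% in the peritoneal and 4.57% in the bone marrow-derived fit. Numbers of calls in the cell types are therefore not directly comparable.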
